A study of Homo sapiens with 7 samples.

Results

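Mitochondrial complex I genes were taken as the protein-coding genes of GENCODE on hg19 (GRCh37) whose symbol starts with NDUFA, NDUFB, NDUFC, NDUFS, NDUFV or NDUFAF. The rule found 48 of 20163 protein-coding genes, spread over 22 chromosomes. Of these, 7 encode core subunits, 30 encode accessory subunits and 8 encode assembly factors (NDUFAF1 to NDUFAF8). The other 3 are not counted as complex I subunits: NDUFA4, whose product is now assigned to complex IV, its paralogue NDUFA4L2, and the readthrough gene NDUFC2-KCTD14, which shares its promoter with NDUFC2.

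The study sheared chromatin of HCT116 cells, an established human colorectal carcinoma line, in microplate wells with the PIXUL sonicator. Its series holds 7 ChIP-seq libraries, each from 200000 cells sonicated for 6 min in 100 µl, with 1 library per antibody. The deposited peak lists of H3K4me3, H3K9Ac, H3K4me1, H3K27me3, H3K36me3 and CTCF were used, and the H3K27Ac library was not analysed here. All libraries come from the same line with no treatment in the labels, so there is no contrast between conditions.

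Complex I (NADH:ubiquinone oxidoreductase) is the entry point of electrons from NADH into the respiratory chain, and it pumps protons across the inner mitochondrial membrane. Its nuclear-encoded core subunits carry the flavin and the iron-sulfur clusters of the matrix arm, accessory subunits surround and stabilise the core, and assembly factors help to build the complex without staying in it. H3K4me3 and H3K9Ac mark active promoters, H3K4me1 marks promoter flanks and enhancers, H3K36me3 lies over transcribed gene bodies, H3K27me3 is laid down by Polycomb complexes over silent genes, and CTCF is a DNA-binding protein of chromatin boundaries.

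Every value below belongs to a peak and was written by the authors' peak caller. Fold enrichment is the ratio of ChIP signal to background, for which the study's Methods name input. The q-value is the adjusted significance of the peak. A peak was counted when it passed the limits of the study's Methods, which were a q-value below 1e-03 with a fold enrichment above 2 for H3K4me1 and H3K27me3, and a q-value below 1e-10 with a fold enrichment above 5 for the other marks. The Methods name no limits for CTCF, and it was treated like the latter. Peaks that miss these limits are called peaks below the filter, and all deposited peaks together are called peaks of any strength. A peak was at the transcription start site (TSS) when it overlapped the 1 kb on either side of it, and in the body when it overlapped the gene further downstream. With 1 library per mark there were no replicates and no test, and the depth of the libraries is unknown. A bulk library cannot tell a mark in fewer cells from less of it in each cell. Fold enrichments were compared within a mark only.

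Marker genes were looked at first as a check of the cells. Of 9 colon epithelium markers, 5 carried H3K4me3 at the TSS: EPCAM with a fold enrichment of 30.4, KRT8 with 21.8, KRT18 with 24.4, CDH1 with 25.1 and CDX2 with 31.6. KRT20, VIL1, CDX1 and the stem cell receptor gene LGR5 did not. The share of 55.6% was near the 59.1% of all protein-coding genes, so this count does not set the colon markers apart. Among the markers of other cell types, H3K4me3 lay at 1 of 5 fibroblast genes (COL1A1, 9.21), 0 of 5 leukocyte genes, 0 of 2 endothelial genes and 1 of 3 neuronal genes (SYT1, 11.5). The endothelial list held 3 genes, of which PECAM1 was not matched among the protein-coding genes and was left out.

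H3K4me3 lay at the TSS of 47 of the 48 complex I genes (97.9%), against 59.1% of all protein-coding genes. H3K9Ac lay at the TSS of 47 as well, against 58.5% of all protein-coding genes and 97.2% of coding genes with H3K4me3. The exception was NDUFA4L2 for both marks. At all 47 marked genes the TSS itself was inside the H3K4me3 peak and inside the H3K9Ac peak. This was near the background, since it held for 98.4% of coding genes with H3K4me3 and, for H3K9Ac, for 11634 of 11797. In strength the H3K4me3 peaks were near those of other marked genes: their median fold enrichment was 24.1, with a middle range of 19.7 to 28.1, against 22.5 and 17.3 to 27.8 over the 11924 marked coding genes. Above that coding median lay 28 of the 47. For H3K9Ac the median was 13.1 in both groups, with 24 of the 47 above it. The share of genes marked was thus well above that of all coding genes, while the strength of the peaks was near theirs.

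**Figure D1:**
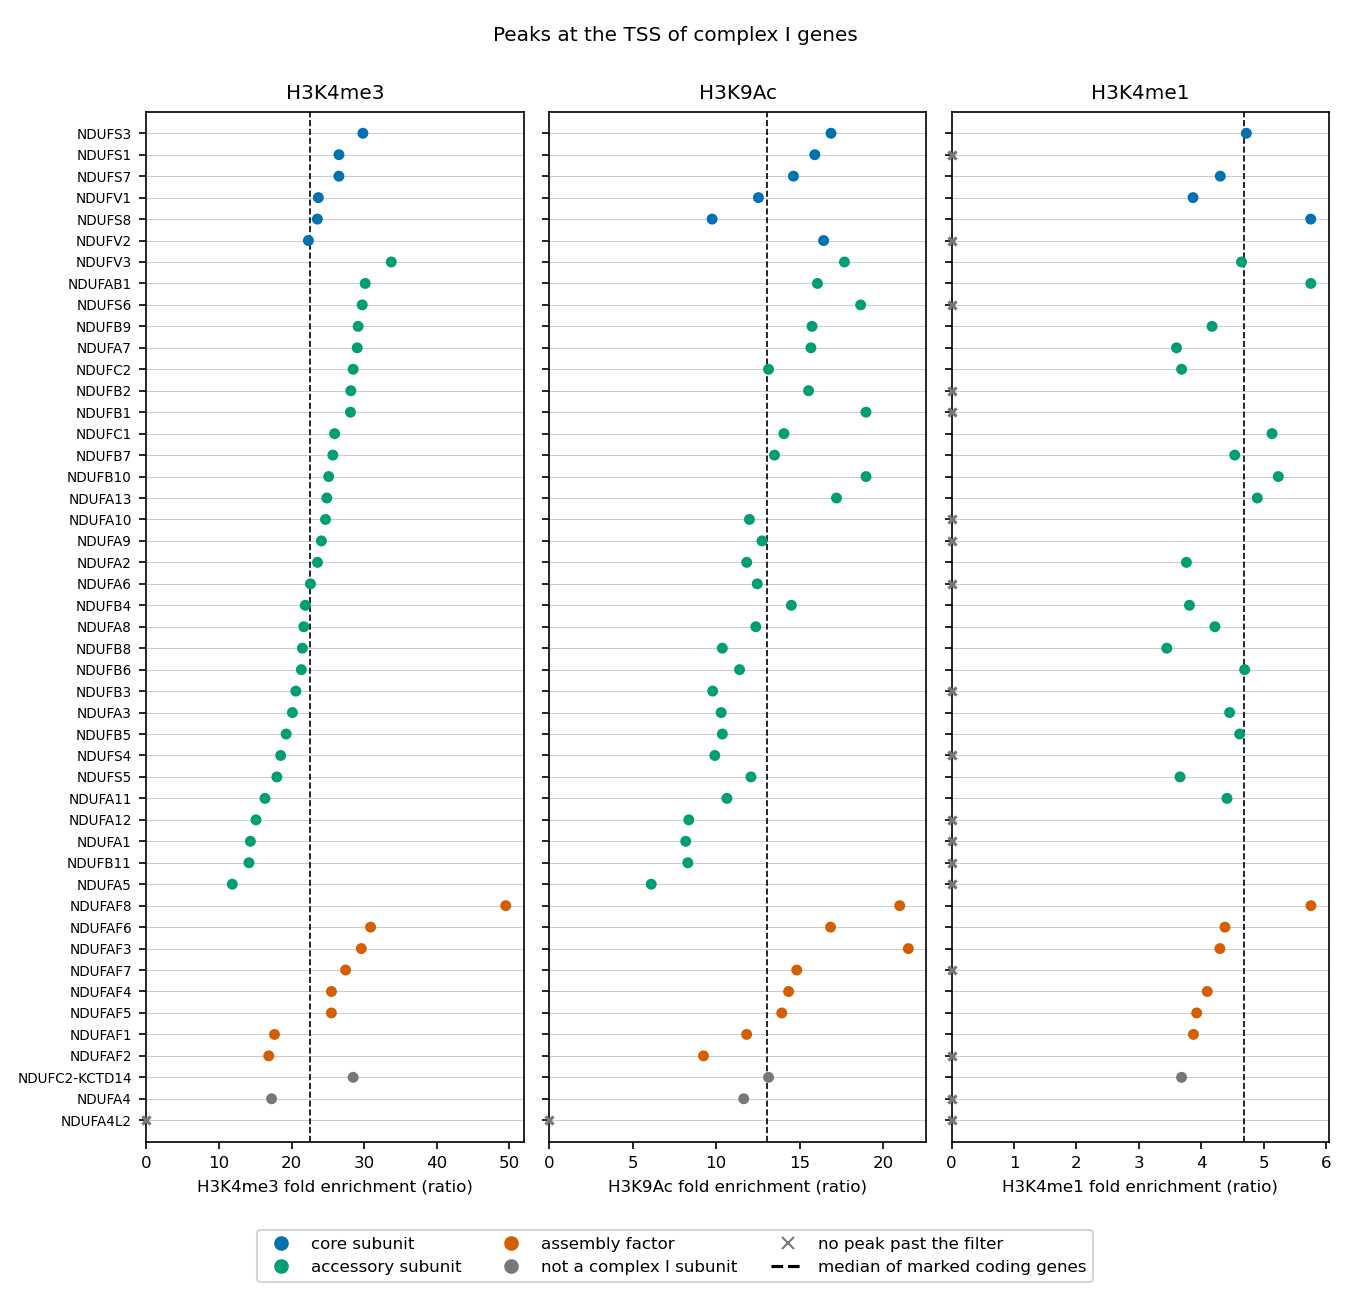
Fold enrichment (ratio) of the strongest H3K4me3, H3K9Ac and H3K4me1 peak at the TSS of complex I genes, coloured by role, with 1 member not shown; crosses at 0 are genes with no peak past the filter and dashed lines are medians of marked coding genes. All genes shown but NDUFA4L2 have H3K4me3 and H3K9Ac, and most H3K4me1 points lie left of the dashed line.

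The core subunits carried H3K4me3 and H3K9Ac at 7 of 7 genes, with median fold enrichments of 23.7 and 14.6. NDUFV1, which binds NADH and the flavin, had an H3K4me3 fold enrichment of 23.7 and an H3K9Ac fold enrichment of 12.5. NDUFV2, which holds an iron-sulfur cluster next to the flavin, had 22.3 and 16.4 for these marks. NDUFS1, the largest subunit and the carrier of several clusters, had 26.5 and 15.9. These are the core subunits of the NADH-oxidising module, and their H3K4me3 values were close to each other. In the module that reduces ubiquinone, NDUFS3 was the highest core gene for both marks, at 29.8 for H3K4me3 and 16.9 for H3K9Ac. NDUFS7, which holds the last cluster before ubiquinone, had 26.5 and 14.6. NDUFS8, the carrier of a further pair of clusters, had 23.5 for H3K4me3. Its H3K9Ac value of 9.76 was the lowest of the core genes.

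Accessory subunits were marked by H3K4me3 and H3K9Ac at 30 of 30 genes, with median fold enrichments of 23.1 and 12.4. The accessory gene with the highest H3K4me3 fold enrichment was NDUFV3, a subunit of the NADH-oxidising module, at 33.7. NDUFAB1, which encodes the mitochondrial acyl carrier protein, followed at 30.1. At the other end, NDUFA5, a subunit of the matrix arm, had the lowest H3K4me3 fold enrichment of all marked members, 11.8, in a peak at chr7:123197015-123198427. It also had the lowest H3K9Ac fold enrichment, 6.11. NDUFB11 and NDUFA1, both subunits of the membrane arm and both on chromosome X, followed for H3K4me3 with 14.1 and 14.3. Their H3K9Ac fold enrichments of 8.31 and 8.18 were the next lowest as well. All marked coding genes of chromosome X had a low median, 12.8 for H3K4me3 and 8.33 for H3K9Ac, so the X-linked members were close to their chromosome. NDUFA12, an accessory subunit of the matrix arm, had an H3K4me3 fold enrichment of 15.1 on an autosome, where the median over marked coding genes was 22.9.

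The 8 assembly factor genes were marked by H3K4me3 and H3K9Ac without exception, with median fold enrichments of 26.5 and 14.6. NDUFAF8, which stabilises the assembly factor NDUFAF5, had the highest H3K4me3 fold enrichment of all members, 49.5, in a peak at chr17:79211501-79214496. This put the peak at percentile 99.7 of all marked coding genes. The TSS of TEPSIN lay in the same peak, so its fold enrichment cannot be assigned to NDUFAF8 alone. NDUFAF6 was also among the highest 5 members, at 30.9 for H3K4me3. For H3K9Ac the highest members were NDUFAF3, which acts early on the ubiquinone module, at 21.5, NDUFAF8 at 21.0, and the accessory subunit gene NDUFB10 at 19.

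NDUFA4L2, a gene known for its induction under low oxygen, stood outside this pattern. At its canonical TSS it had no H3K4me3, H3K9Ac or H3K4me1 peak past the filter. The 5′ end of the annotated gene lies 3611 bp from that TSS, and there an H3K4me3 peak had a fold enrichment of 7.30. An H3K4me1 peak past the filter (5.35) and an H3K9Ac peak below it (5.46) lay there too. Between these positions a CTCF peak with a fold enrichment of 24.0 lay at chr12:57632433-57633420. Its paralogue NDUFA4 carried H3K4me3 at 17.2 and H3K9Ac at 11.7. The readthrough gene NDUFC2-KCTD14 shared 1 peak with NDUFC2 for each mark, with 28.5 for H3K4me3.

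Over the 47 genes, the H3K4me3 and H3K9Ac fold enrichments rose together across genes (Spearman's rho 0.860, Pearson's r 0.824). Over 11590 coding genes with both marks rho was 0.794. Genes are not independent replicates here, and all points share the same 2 libraries.

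Peak widths at complex I genes were near those of other marked genes. The median width was 2118 bp for H3K4me3, against 2061 bp over marked coding genes, and 3005 bp for H3K9Ac, against 3112 bp. At 47 of 47 genes the H3K9Ac peak was wider than the H3K4me3 peak, against 97.8% of coding genes with both. It contained the whole H3K4me3 peak at 43, against 90.1%. The H3K4me3 peak reached further downstream of the TSS than upstream at 31 of 47 genes and further upstream at 16. The longer side was downstream at 72.9% of marked coding genes, so most genes leaned the same way in both groups.

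The widest H3K4me3 peak, 7446 bp, was at NDUFB10, a subunit of the membrane arm, at chr16:2009188-2016633. It ended 7094 bp downstream of the TSS, beyond the gene's end at 2437 bp. The TSS of RPS2 lay in the same peak, so its width cannot be assigned to NDUFB10 alone. NDUFAF3 had the next widest, 6131 bp, which began at -4732 bp relative to the TSS. NDUFS6, a zinc-binding subunit of the NADH-oxidising module, followed with 4210 bp. Those peaks held the TSS of DALRD3 and of MRPL36. Each of the 3 extended mostly to 1 side. The narrowest were at NDUFS4 (1280 bp), a subunit known from Leigh syndrome, NDUFA5 (1413 bp) and NDUFA8 (1488 bp). For H3K9Ac the widest peak, 9870 bp, lay at NDUFAF8, while the H3K4me3 peak of this gene measured 2996 bp. The H3K9Ac peak ended 8319 bp downstream of the TSS, beyond the gene's end at 1992 bp. Its width thus cannot be assigned to NDUFAF8 alone.

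**Figure D2:**
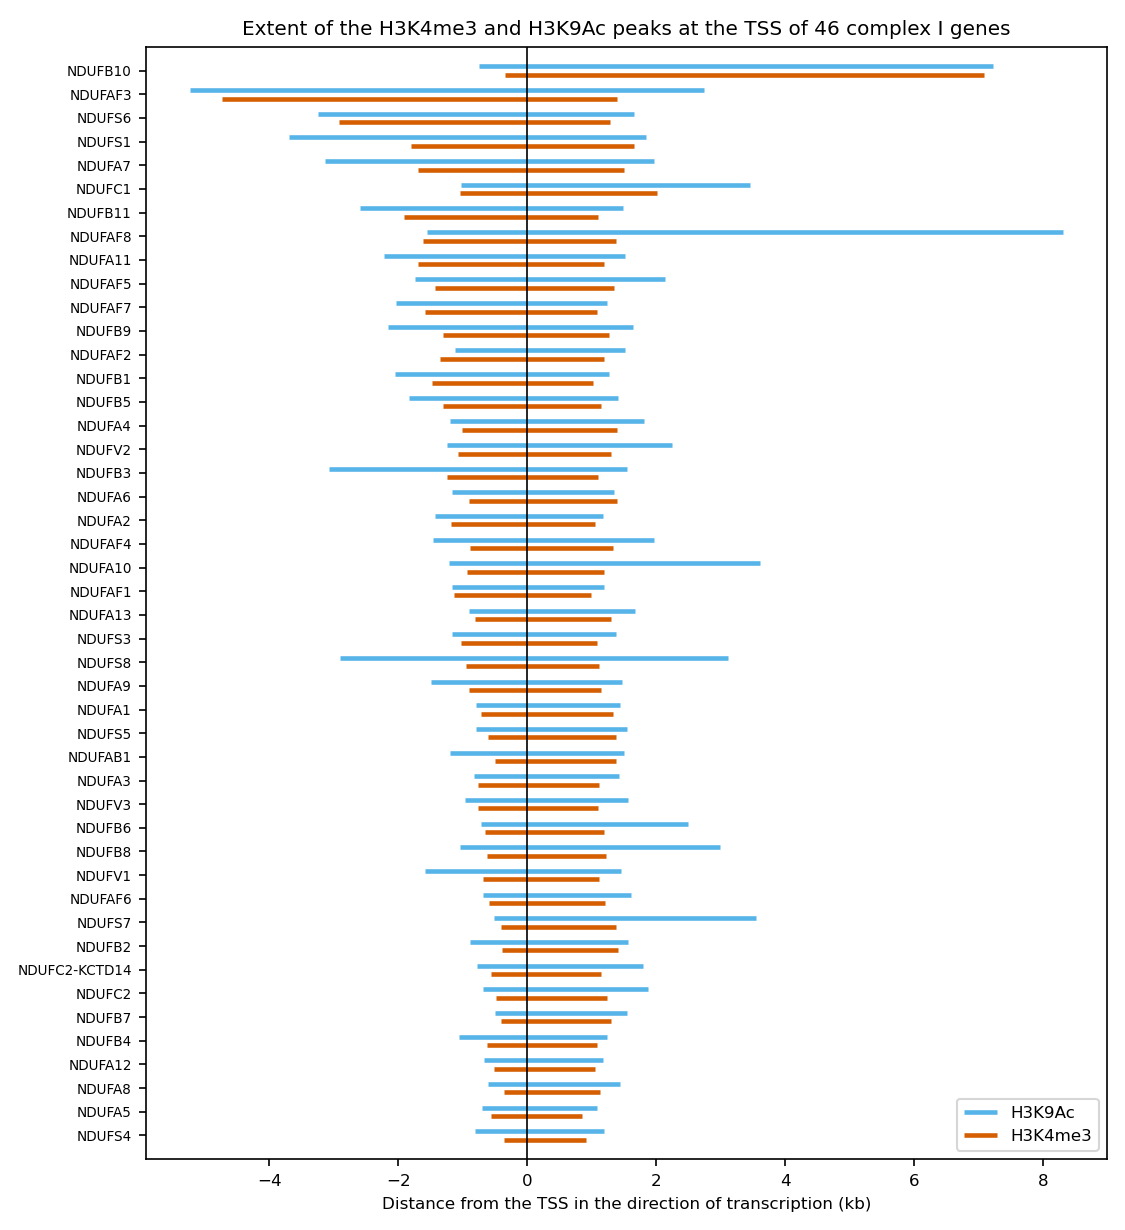
Extent of the H3K4me3 and H3K9Ac peaks at the TSS of marked complex I genes (1 not shown), in kb from the TSS in the direction of transcription, ordered by H3K4me3 width. The H3K9Ac bar is longer than the H3K4me3 bar at every gene shown, and NDUFB10, NDUFAF3 and NDUFS6 have the widest H3K4me3 peaks.

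H3K4me1 at the TSS was less general. It was past the filter at 30 of 48 genes (62.5%), against 49.1% of all protein-coding genes and 74.5% of coding genes with H3K4me3. This count depended on the settings: it was 19 with 500 bp on each side of the TSS and 0 under the limits for the other group of marks. The 30 genes carried all 3 marks, a combination found at 43.1% of all protein-coding genes. By role the count was 5 of 7 core, 18 of 30 accessory and 6 of 8 assembly factor genes. Of the other 18 members, 13 had only H3K4me1 peaks below the filter and 5 had none of any strength: NDUFS1, the accessory genes NDUFA5 and NDUFS4, the assembly factor gene NDUFAF2 and NDUFA4L2. With peaks of any strength the count was 43 (89.6%), against 61.2% of all protein-coding genes and 92.2% of coding genes with H3K4me3. Members with H3K4me1 had a median H3K4me3 fold enrichment of 25.3, against 22.3 at the 17 members with H3K4me3 and without H3K4me1. Coding genes with both marks had a median of 22.9, against 22.5 over all coding genes with H3K4me3. The latter include the former, which are 74.5% of them, so this gap cannot be set beside that of the members.

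The H3K4me1 peaks had lower fold enrichments than those of all coding genes. Their median fold enrichment was 4.34 against 4.69 over all coding genes with such a peak, and 9 of the 30 lay above that value. The median was lower still at subunit genes of complexes II to V (4.27) and at assembly factor genes with other names (3.96). The highest were at NDUFAF8, NDUFAB1 and NDUFS8, which all had fold enrichments between 5.75 and 5.76. The lowest were at NDUFB8 (3.45), a subunit of the membrane arm, NDUFA7 (3.6), a subunit of the matrix arm, and NDUFS5 (3.66), a subunit on the intermembrane space side. Other core values were 4.72 at NDUFS3, 4.30 at NDUFS7 and 3.87 at NDUFV1, and NDUFV2 had a peak below the filter with 3.44. NDUFS8 was above all of these genes for H3K4me1 and above NDUFV2 alone for H3K4me3. Over the 30 members with both marks, Spearman's rho between the H3K4me3 and H3K4me1 fold enrichments was 0.151. Over 8878 coding genes with both marks it was -0.0564.

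The H3K4me1 peaks were also described by their position relative to the TSS. The TSS was inside an H3K4me1 peak at 14 of the 30 members (46.7%), against 67.4% of the 8878 coding genes with both H3K4me3 and H3K4me1. At 8 members the peaks lay upstream only (26.7% against 19.7%), at 6 downstream only (20% against 8.26%) and at 2 on both sides of the TSS without covering it (6.67% against 4.71%). NDUFS3 is a core gene with the upstream form, and NDUFB9 and NDUFA7 are accessory genes with the downstream form. The assembly factor genes NDUFAF4 and NDUFAF8 had flanking peaks on both sides. In genes of complexes II to V the TSS was inside an H3K4me1 peak at 13 of 25 with the mark, and in cytoplasmic ribosomal protein genes at 8 of 55.

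Shared promoters were frequent. Another coding gene on the opposite strand had its TSS within 1 kb at 18 of 48 members (37.5%), against 9.93% of all protein-coding genes and 16.0% of coding genes with H3K4me3. In 17 of these pairs the genes diverged, and NDUFC1 with NAA15 was the exception at 972 bp. At all 18 the partner's TSS was inside the same H3K4me3 peak, so that peak cannot be assigned to either gene. Marked coding genes with a partner were alike, with 1803 of 1904 divergent and the partner inside the same peak at 1875. The closest pair was NDUFB9, which encodes an accessory subunit that binds the acyl carrier protein, with TATDN1 at 38 bp. Then came NDUFAF7, which encodes a mitochondrial methyltransferase, with CEBPZ at 62 bp, and NDUFA9, a subunit near the ubiquinone pocket, with AKAP3 at 63 bp. NDUFA1 lay 99 bp from RNF113A, NDUFS3 lay 104 bp from KBTBD4, and NDUFAF5 lay 109 bp from ESF1.

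Members with such a partner had wider H3K4me3 peaks, with a median of 2517.5 bp against 1874 bp at the 29 marked members without one. Over marked coding genes the same split gave 2566 bp and 1959 bp. H3K4me1 was past the filter at 10 of the 18 members with a partner and at 20 of the 29 without one. In marked coding genes these shares were 61.0% and 77.0%. The TSS was inside the H3K4me1 peak at 1 of those 10 members and at 13 of those 20. Over marked coding genes it was inside at 534 of 1161 with a partner and at 5447 of 7717 without one, so the lower share of the members lay mainly in those with a partner. In all of these respects the members and coding genes differed in the same direction with a partner.

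CTCF was at the TSS of 9 of the 48 genes (18.8%), against 13.6% of all protein-coding genes and 19.3% of coding genes with H3K4me3, a share near the background. None of the 7 core genes was among them. Accessory genes gave 6: NDUFA6, which binds the acyl carrier protein, with a fold enrichment of 22.3, NDUFB10 with 19.9, NDUFAB1 with 19.2, NDUFB7 with 13.7, NDUFB6 with 9.74 and NDUFB9 with 6.68. Assembly factor genes gave 3: NDUFAF3 with 23.8, NDUFAF4, its partner in assembly, with 15.3, and NDUFAF6 with 12.3. The CTCF peak contained the TSS at 8 of the 9, and that of NDUFB6 began 197 bp downstream. A further 7 genes had a CTCF peak below the filter at the TSS, and 32 had none of any strength. With peaks of any strength the count was thus 16 (33.3%), against 29.5% of all protein-coding genes and 43.6% of those with H3K4me3.

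In the body, 12 members had a CTCF peak (25%), against 35.3% of all protein-coding genes. NDUFA10, a subunit of the membrane arm, had 3 of them, with fold enrichments of 13.7, 10.7 and 8.76. The highest was at NDUFC1, a small membrane subunit, with 20.8, followed by 18.6 at NDUFC2-KCTD14. Others were NDUFAF6 (13.7 and 7.01), NDUFA11 (11.7), NDUFAF2 (10.5), NDUFB6 (9.74, the peak already named), NDUFA5 (9.47), NDUFA2 (8.10), NDUFB9 (7.14) and NDUFAF5 (7.09). Complex I genes were shorter than coding genes, with a median length of 14480 bp against 27219 bp, and the part of length in the lower share was not tested.

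The core of the CTCF motif was searched by its 12 letters on both strands of these peaks. It was found in 1 of the 9 peaks at member TSSs and in 2 of the 15 other CTCF peaks that overlap member genes. It was present in 10.9% of the 2512 CTCF peaks at coding TSSs and in 22.4% of all 24536. The 3 matches are shown because they place the letters within a peak that has a value. They are read from the GRCh37 genome on the minus strand, with the core in capitals, at chr9:32572448-32572477 for NDUFB6, chr7:123177297-123177326 for NDUFA5 and chr11:77757405-77757434 for NDUFC2-KCTD14.
NDUFB6: agtatccaaCCACCAGAGGGCacagccagc
NDUFA5: tttatcaagCCACTAGGTGGCatctttgta
NDUFC2-KCTD14: cggctccggCCAGCAGAGGGCgctgccggg

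The matches lay 692 bp downstream of the TSS in NDUFB6, 20555 bp in NDUFA5 and 33394 bp in NDUFC2-KCTD14. They describe the sequence and are not shown to be bound.

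Promoter sequence was then described in the 300 bases from 250 before to 50 after each TSS, on both strands. The letters GCGCANGCG, the core of the NRF1 motif, were in 11 of 48 member promoters (22.9%), against 10.9% of 20140 coding promoters and 16.4% of those with H3K4me3. By role these were 1 core, 9 accessory and 1 assembly factor gene. They are shown for the 5 genes that follow, since NRF1 is known as a regulator of respiratory chain genes. The sequences come from GRCh37 and run in the direction of the gene, with the letters in capitals (the reverse complement where the match is on the other strand). The positions are chr19:1383822-1383851 on the plus strand for NDUFS7, chr5:1801465-1801494 on the plus strand for NDUFS6, chr7:123198011-123198040 on the minus strand for NDUFA5, chr3:120315110-120315139 on the plus strand for NDUFB4 and chr20:13765660-13765689 on the plus strand for NDUFAF5.
NDUFS7: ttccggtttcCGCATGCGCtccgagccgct
NDUFS6: cagaagccgtGCGCATGCGttagcgctaag
NDUFA5: tatgcccatcGCGCATGCGtcaatttttct
NDUFB4: ctctgctaacGCGCAGGCGcacttcctgaa
NDUFAF5: agccgcgctgGCGCATGCGcacaaaaagcg

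NDUFB4, a subunit of the membrane arm, held 4 such matches, the most of any member, and some of them overlap on opposite strands. The genes shown include NDUFA5, with the lowest H3K4me3 fold enrichment, and NDUFS6, with 1 of the widest H3K4me3 peaks. No match in a window says only that these letters are not in it.

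The letters AAGATGGCG, the core of the YY1 motif, were in 8 of 48 promoters (16.7%), against 2.82% of coding promoters and 4.57% of those with H3K4me3. All 8 matches were on the strand of the gene and downstream of the TSS, whereas 65.1% of the 567 coding promoters with the letters had such a match. At 7 of the 8 the annotated start codon, ATG, lies within the letters, so the match is also the start of the coding sequence. Over the 567 promoters this held for 263 (46.4%). The exception was NDUFAF8. The windows of 7 of them are printed because they share letters, strand and side of the TSS. They come from GRCh37 on the strand of each gene, with the letters in capitals: the plus strand for NDUFS7 at chr19:1383913-1383942, NDUFA9 at chr12:4758280-4758309, NDUFS4 at chr5:52856480-52856509 and NDUFAF8 at chr17:79213117-79213146, and the minus strand for NDUFA6 at chr22:42486732-42486761, NDUFA7 at chr19:8386226-8386255 and NDUFB8 at chr10:102289592-102289621.
NDUFS7: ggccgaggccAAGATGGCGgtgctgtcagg
NDUFA9: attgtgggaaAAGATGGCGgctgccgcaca
NDUFS4: tgcctgcagcAAGATGGCGgcggtgtcaat
NDUFAF8: ggacggacctAAGATGGCGgcctccagggg
NDUFA6: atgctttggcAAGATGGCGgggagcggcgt
NDUFA7: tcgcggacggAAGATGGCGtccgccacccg
NDUFB8: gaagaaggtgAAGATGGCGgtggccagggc

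The first base of the letters lay between 10 and 26 bp downstream of the TSS in these genes. Their peaks were not alike: NDUFAF8 had the highest H3K4me3 fold enrichment of all members (49.5, in the peak shared with TEPSIN), and NDUFS4 had 18.5.

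The other letters are given beside all coding promoters and then beside those with H3K4me3. CCGGAAGT, the ETS core bound by GABPA, was in 3 member promoters (6.25% against 6.10% and 9.76%), those of NDUFS1, NDUFA13 and NDUFB5. GGGGCGGGG, the GC box of SP1, was in 7 (14.6% against 24.3% and 33.2%). CCAAT was in 12 (25% against 35.9% and 36%) and TATAAA in 3 (6.25% against 9.81% and 4.44%). At least 1 of the NRF1, ETS and YY1 letters was in 20 promoters (41.7%), against 18.1% of coding promoters and 27.9% of those with H3K4me3. The median GC content of the member promoters was 61%, against 63.7% in coding promoters and 67.3% in those with H3K4me3. Their median ratio of observed to expected CpG was 0.849, against 0.773 and 0.873. NDUFA4L2, the member without H3K4me3, had the lowest ratio, 0.194.

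**Figure D3:**
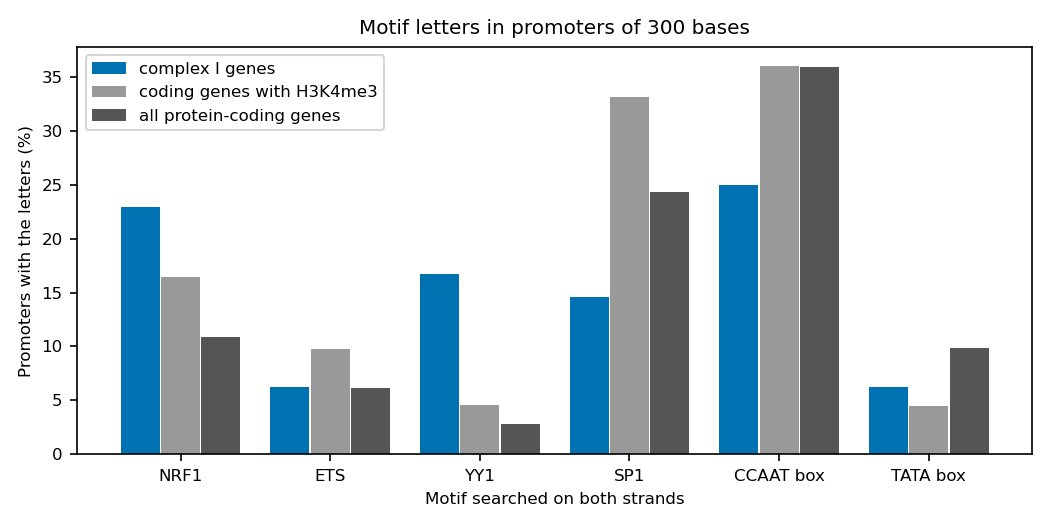
Share of promoters (%) of 300 bases that hold the letters of each motif on either strand, for the complex I genes, coding genes with H3K4me3 and all protein-coding genes. The complex I bar is the highest for NRF1 and YY1 and the lowest for SP1 and the CCAAT box.

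Longer runs are given for a pair of promoters where a CTCF peak covers the stretch just upstream of the TSS. Both are on chromosome 16 of GRCh37, the one of NDUFAB1 on the minus strand at chr16:23607638-23607837 and the one of NDUFB10 on the plus strand at chr16:2009339-2009538, and each ends at the base before the TSS. Capitals mark the NRF1 letters in NDUFAB1, which start at -45 bp, and NDUFB10 holds none of the NRF1, ETS or YY1 letters.
NDUFAB1: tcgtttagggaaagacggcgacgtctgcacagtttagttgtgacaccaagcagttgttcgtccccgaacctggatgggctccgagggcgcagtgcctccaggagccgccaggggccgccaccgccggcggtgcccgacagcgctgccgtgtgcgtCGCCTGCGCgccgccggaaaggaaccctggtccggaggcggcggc
NDUFB10: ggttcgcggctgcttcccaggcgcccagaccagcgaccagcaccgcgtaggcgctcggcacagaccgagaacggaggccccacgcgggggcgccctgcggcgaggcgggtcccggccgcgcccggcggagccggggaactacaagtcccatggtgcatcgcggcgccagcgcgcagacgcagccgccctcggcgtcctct

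The peaks that cover these stretches had fold enrichments of 30.1 for H3K4me3, 16.1 for H3K9Ac and 19.2 for CTCF at NDUFAB1. At NDUFB10 they had 25.1, 19 and 19.9. These values describe whole peaks, and the H3K4me3 and H3K9Ac peaks of NDUFB10 were 7446 and 7990 bp wide. The promoter window of NDUFB10 had 39 CpG pairs, the most of any member, against a median of 23.5 over the members.

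H3K36me3 past the filter was found at 0 of 48 members, at the TSS or in the body, against 0.521% of all protein-coding genes, so a count of 0 is near the background. With peaks of any strength, all 48 had H3K36me3, against 56.1% of all protein-coding genes and 83.9% of coding genes with H3K4me3. Taking the strongest such peak in the body of each gene, fold enrichment had a median of 3.52 and a maximum of 5.82. The −log10 q-value had a median of 2.83 and a maximum of 7.87. The mark was thus listed at every member, and no peak met both limits of the Methods. NDUFB10 and NDUFB9 passed the limit on fold enrichment and missed that on the q-value.

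Each of the 48 genes had an H3K36me3 peak of any strength in the body. The first peak to overlap the body began more than 1 kb downstream of the TSS at 44 of them, against 92.2% of coding genes with such a peak in the body. The median start was 1590.5 bp, against 2384.5 bp in those genes. In all, 6 members had H3K36me3 of any strength at the TSS (NDUFA2, NDUFA4L2, NDUFA7, NDUFA8, NDUFAF3 and NDUFC1), or 12.5% against 6.49% of all protein-coding genes. At NDUFA7 and NDUFC1 this was a separate peak upstream of the TSS. The peaks covered a median of 61.7% of the gene, against 37.7% in coding genes with H3K4me3. More than 50% of the gene was covered at 31 members (64.6%), against 25.4% of all protein-coding genes and 40.8% of those with H3K4me3. The latter had a median length of 33957.5 bp, against 14480 bp for the members, and the part of length in this difference was not tested. All 7 core genes were covered over more than 50%, as were 20 of 30 accessory genes and 3 of 8 assembly factor genes.

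The highest coverage was at NDUFS6 with 91.6%, NDUFAF5 with 90.6% and NDUFAB1 with 90.4%. The lowest was at NDUFAF2 with 1.07%, NDUFA12 with 6.83% and NDUFS4 with 10%. These are long genes, of 209355 bp, 108452 bp and 122706 bp. The highest fold enrichments in the body were 5.82 at NDUFB10, 5.05 at NDUFB9 and 4.61 at NDUFAF3. The upstream peak of NDUFA7 had 4.63. Peaks did not stop at gene ends: at 28 members the last peak ran past the 3′ end, against 54.9% of coding genes with such a peak, and at 21 a peak also overlapped another coding gene, against 40.6%. The peak of NDUFB10 also overlapped the ribosomal protein gene RPS2, and that of NDUFAF3 overlapped IMPDH2. At NDUFA4L2, the peak (fold enrichment 4.0) ran from 941 to 6216 bp downstream and also overlapped SHMT2, so it cannot be assigned to NDUFA4L2 alone.

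**Figure D4:**
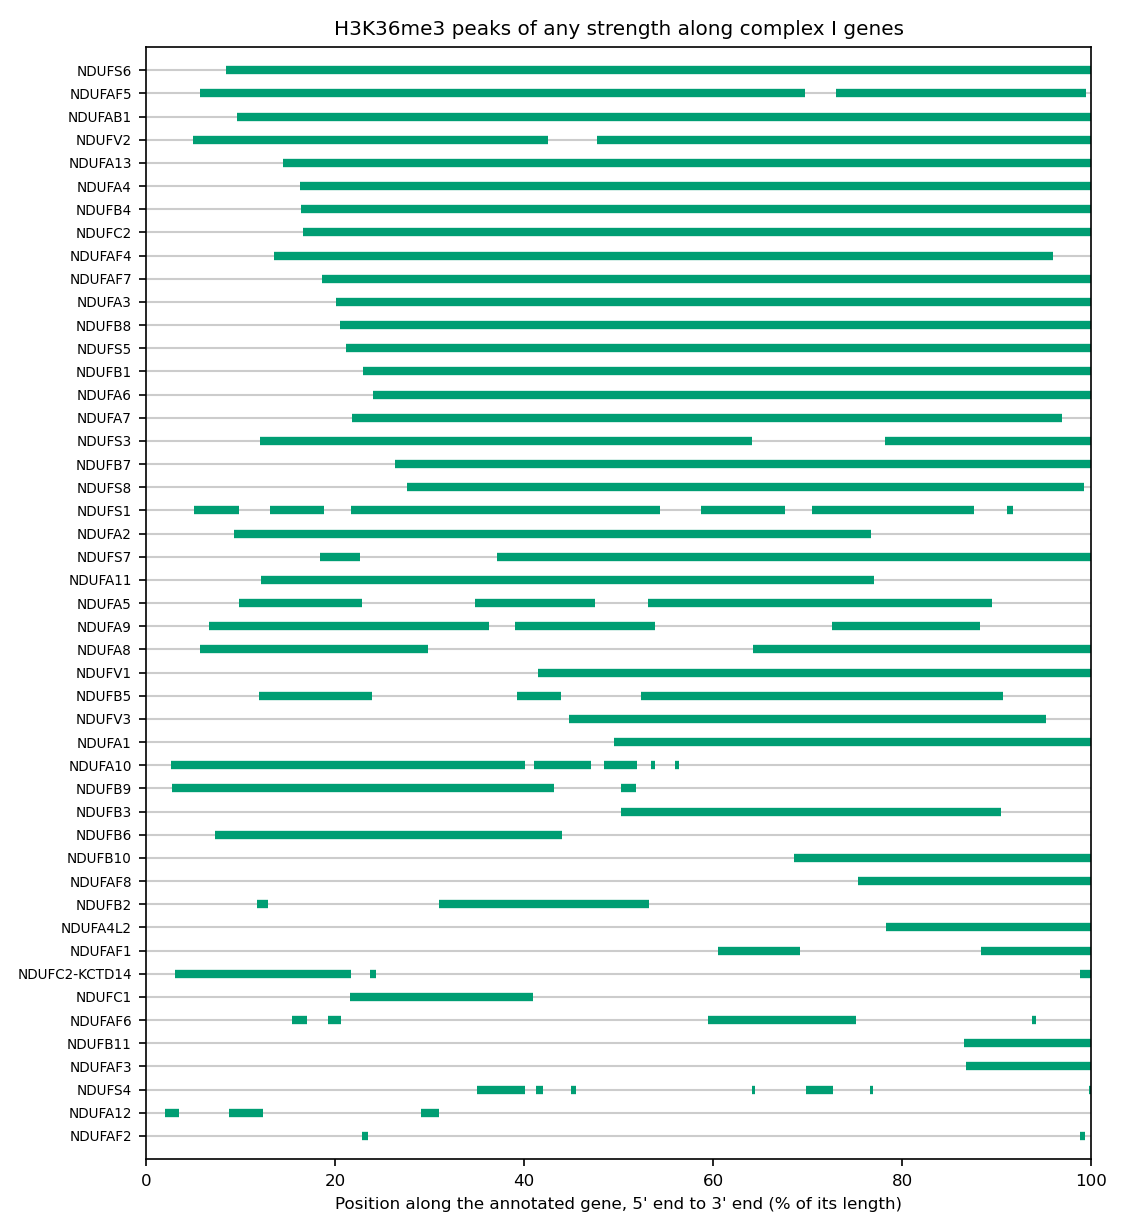
H3K36me3 peaks of any strength along the complex I genes (1 not shown), from the 5′ end to the 3′ end (% of gene length), ordered by the share covered. At most genes the first bar begins some distance after the 5′ end, and NDUFA12 and NDUFAF2 are covered least.

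H3K27me3 was past the filter at 0 of 48 members, at the TSS or in the body, against 2.76% of all protein-coding genes. Of any strength it was at 0 as well, against 20.2% of all protein-coding genes and 8.90% of those with H3K4me3. The peaks in the H3K27me3 list have names that do not include that of the cell line, unlike the other 5 lists, and the label of the list was taken as given.

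The choice of TSS mattered at few members. The 5′ end of the annotated gene lay more than 1 kb from the canonical TSS at 9 of them. Of these, NDUFB2 and the assembly factor gene NDUFAF1 had no H3K4me3 at the gene's 5′ end, while their canonical TSS did. NDUFAF6 had H3K4me3 at both, with a fold enrichment of 29.3 at the 5′ end, 129456 bp away, and 30.9 at the canonical TSS. In NDUFV3 the 5′ end, 13665 bp away, had 30.9 against 33.7. Whether other genes start in the peaks at these distant 5′ ends was not tested.

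Related genes were counted in the same way. Of 11 complex I assembly factor genes with other names, all had H3K4me3 at the TSS, with a median fold enrichment of 20.7 against 26.5 for the NDUFAF genes. TMEM70 (30.5) was the highest of them and DMAC2 (12.9) the lowest. Subunit genes of complexes II to V had H3K4me3 at 39 of 43, with a median of 26.4 against 24.1 for complex I. The 4 without it were COX4I2, COX6A2, COX6B2 and COX7A1, which encode tissue-restricted forms of complex IV subunits. H3K4me1 was at 25 of the 43 and CTCF at 8. H3K27me3 was at 1 of them (UQCRB, in the body, 4.05), and H3K36me3 past the filter at 0. Among 8 genes of mitochondrial regulators, 7 had H3K4me3, including NRF1 (39.3) and YY1 (40.8), and PPARGC1A did not.

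Cytoplasmic ribosomal protein genes, another group of short and widely used genes, differed from complex I genes in breadth and in H3K36me3. They had H3K4me3 at 82 of 87, with a median fold enrichment of 25.5. Their H3K9Ac peaks had a median width of 5573 bp, against 3005 bp at complex I genes. H3K36me3 was past the filter at 17 of 87 (19.5%), against 0 of 48 complex I genes. At the TSS, H3K36me3 of any strength was found at 72 of the 87, against 6 of the 48.

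**Figure D5:**
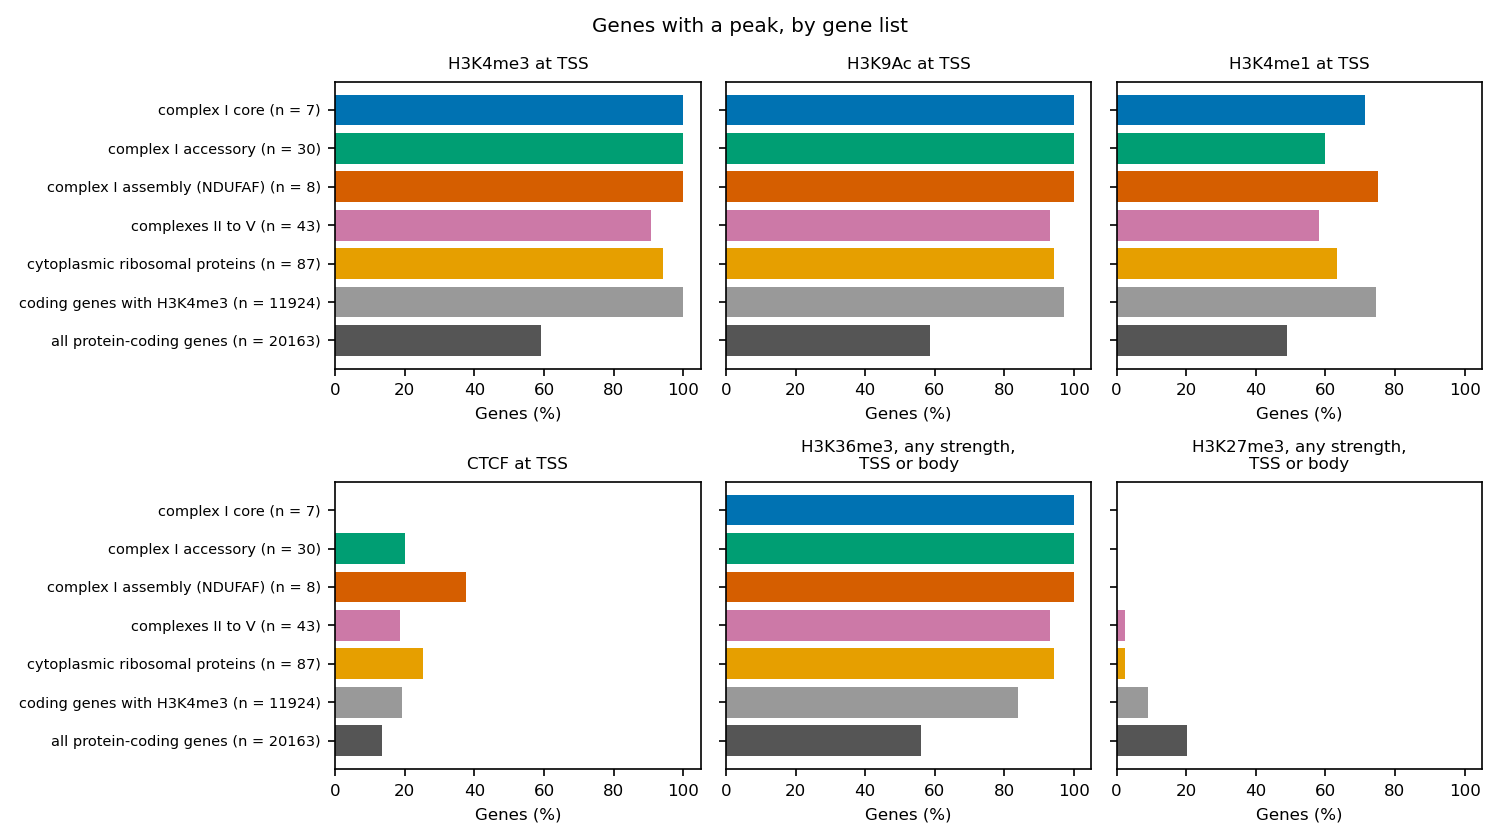
Share of genes (%) with a peak, for the 3 complex I roles, complexes II to V, cytoplasmic ribosomal protein genes, coding genes with H3K4me3 and all protein-coding genes; n is the number of genes in each list. H3K4me3 and H3K9Ac reach 100% in each complex I role, and no complex I role has H3K27me3.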

How the data were processed

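Alignment by the authors used BWA 0.7.12 on hg19, and broad peaks were called library by library. The paper names MACS2 and the submitted processing notes name MACS 1.4.2, with SAMtools 0.1.19 and bcl2fastq 2.20.0.442. The deposited lists give for each peak a linear ratio, the fold enrichment, which the Methods state relative to input. They also give both significance values on a −log10 scale (p-value, q-value), as the authors wrote them. They hold no read counts, so depth is unknown.

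Peaks were filtered as in the study's Methods and overlapped by at least 1 bp with GENCODE 44 genes on GRCh37. The TSS was that of the canonical transcript, or the 5′ end of the gene for 282 genes without one (NDUFB6 among the members). The strongest peak stood for a gene. Promoters were read from the GRCh37 genome, and 23 coding genes were left out of the promoter counts. The overlap of H3K4me3 with the TSS was checked by a second method at 300 genes, of which 0 differed, and tested on simulated data. The tools were samtools 1.23.1, matplotlib 3.10.9, scipy 1.17.1, numpy 2.4.6 and pandas 2.3.3 under Python 3.11.15.

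Members and gene lists were chosen with earlier results of these data known. Described by name, with 1 gene left out, were the core genes, the members without H3K4me3, those with CTCF, H3K27me3 or H3K36me3 past the filter, the 5 highest and 5 lowest fold enrichments and the 3 widest and 3 narrowest peaks of H3K4me3, the 3 highest and 3 lowest fold enrichments of H3K9Ac and H3K4me1, and the 6 nearest promoter pairs. Any other gene was chosen once its values had been seen. Since each mark has 1 library, members were counted beside all protein-coding genes and no test was made. Alternatives were other limits, other TSS windows, the 5′ end of the gene as TSS, peaks that contain the TSS, the nearest peak in place of the strongest, and the members without NDUFA4, NDUFA4L2 and the readthrough gene.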

Additional observations from a re-analysis of the deposited data

How the results depend on the processing

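Of 100 alternatives for 13 results, 99 gave a value, and 88 of these stayed within the range set for them (1.5 times a count, or the interval of a median). The other, the median H3K4me1 fold enrichment under the limits for the other group of marks, had no peaks left. The H3K4me1 count of 30, and with it the count of genes with all 3 marks, became 0 under those limits, 19 with 500 bp on each side of the TSS and 14 where the peak had to contain the TSS. Under the limits for the other group, the CTCF count of 9 became 14 and the H3K36me3 count of 0 became 23. With all deposited peaks, CTCF rose to 16, H3K36me3 to 48 and the median H3K4me1 fold enrichment changed from 4.34 to 3.87. These changes follow from which peaks each setting admits.

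Each mark has 1 library, so no value carries a replicate error. The lists hold only called peaks, and a deeper library can add weaker ones, so a missing peak does not show that a mark is absent. Peaks cannot be assigned to 1 of the genes that share them. Fold enrichment describes a whole peak, and a wide peak can hold a higher local value. No expression values were used here.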

Other observations

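The annotation lists 63 pseudogenes with the same symbol prefixes. H3K4me3 past the filter overlapped 1 of them (1.59%), NDUFAF4P1 on chromosome 15, and H3K9Ac also overlapped 1.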
